A study of Mus musculus with 8 samples.

Results

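Matrix metalloproteinases, the astacin protease meprin alpha and the tissue inhibitors of metalloproteinases were followed across 8 arrays of NMuMG cells, an epithelial line from mouse mammary gland. The set was a list of 10 gene symbols: the secreted proteases Mmp2, Mmp3, Mmp9 and Mmp13, the membrane-bound proteases Mmp14 and Mmp15, the inhibitors Timp1, Timp2 and Timp3, and Mep1a, which encodes meprin alpha. A member was measured where a probeset carried its symbol alone, which held for 9 of the 10, each with 1 probeset, among 19937 genes in all. Mmp15 was not analysed here. Mep1a and Timp3 were selected for the list from their difference with TGFbeta in these same arrays, so their TGFbeta values are given as a description with no test.

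Both cell populations carried a stably integrated vector. The control group held a control vector, and the other held a vector with major satellite, the tandem repeat that makes up mouse pericentromeric heterochromatin. Each population was profiled untreated and after TGFbeta for 8 h, and the 4 groups held 2 arrays each. The dose of TGFbeta, the promoter of the satellite vector and whether the lines were clones or pools are not stated in the labels.

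The proteases of this family are zinc enzymes that cut collagens, laminins, growth factors and cell surface proteins. Most leave the cell or reach its surface as inactive precursors, and furin-like convertases, plasmin or another metalloproteinase remove the inhibitory propeptide. The tissue inhibitors (TIMPs) bind the active site and block it, so the balance of proteases and inhibitors sets how much matrix is degraded. TGFbeta drives NMuMG cells through an epithelial to mesenchymal transition, a change of state in which contact with the basement membrane is remodelled.

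The values are log2 expression after RMA, a summary of the probes of each probeset, so a difference of 1 is a doubling of signal, and levels of different genes are not set against each other because each probeset binds with its own strength. Over all probesets values ran from 2.98 to 14.75. The mean of Mmp3 lay in the lowest 25% of genes (percentile 16.0), and the other 8 measured members lay above it. Among those 8 the lowest mean was that of Mmp9 (percentile 34.6). The titles of the arrays carry a code shared by 1 array of each group, and the arrays are called replicate 1 and 2 by that code. Nothing in the labels says that the replicates were separate cultures, so a p-value measures no more than the spread between arrays, which may be technical. With 2 arrays per group, their number limits the precision. In bulk RNA, fewer cells of a type and less RNA per cell cannot be told apart. Of 10 epithelial marker genes, 4 (Cdh1, Krt8, Krt18 and Krt19) lay above the median of all genes in every array, and the other 6, which include Epcam, Esrp1 and Grhl2, did not.

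Promoter sequences are shown for the members with the largest differences and for Mmp3, which lies with Mmp13 in the protease cluster of chromosome 9. The sequences come from RefSeq on GRCm38.p6, run 5′ to 3′ on the gene's own strand, and cover 300 bases each, most of them before the annotated start. Mmp13 lies at chr9:7272264-7272563 (plus strand), Mmp3 at chr9:7445572-7445871 (plus strand), Timp3 at chr10:86300162-86300461 (plus strand) and Mep1a at chr17:43502724-43503023 (minus strand). Capitals mark TGANTCA, the site of AP-1 (searched on both strands), TATAAA, the TATA box (on the gene's strand), and CAGAC, a Smad-binding sequence (both strands, read as GTCTG on the other).
Mmp13: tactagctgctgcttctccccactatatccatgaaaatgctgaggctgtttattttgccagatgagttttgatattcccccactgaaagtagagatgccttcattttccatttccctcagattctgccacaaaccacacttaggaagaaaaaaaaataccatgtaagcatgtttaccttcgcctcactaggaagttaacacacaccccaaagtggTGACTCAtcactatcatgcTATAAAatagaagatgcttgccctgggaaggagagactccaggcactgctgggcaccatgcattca
Mmp3: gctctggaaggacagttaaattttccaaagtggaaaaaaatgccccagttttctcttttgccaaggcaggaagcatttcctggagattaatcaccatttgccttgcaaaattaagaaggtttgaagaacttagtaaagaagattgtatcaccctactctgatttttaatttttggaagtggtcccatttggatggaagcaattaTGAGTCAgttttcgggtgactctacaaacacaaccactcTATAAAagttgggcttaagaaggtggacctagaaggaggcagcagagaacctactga
Timp3: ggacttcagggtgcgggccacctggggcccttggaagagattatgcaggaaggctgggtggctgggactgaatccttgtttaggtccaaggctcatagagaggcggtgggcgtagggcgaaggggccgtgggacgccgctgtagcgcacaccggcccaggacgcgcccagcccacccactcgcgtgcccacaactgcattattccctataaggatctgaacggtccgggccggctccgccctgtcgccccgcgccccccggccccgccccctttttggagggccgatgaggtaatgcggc
Mep1a: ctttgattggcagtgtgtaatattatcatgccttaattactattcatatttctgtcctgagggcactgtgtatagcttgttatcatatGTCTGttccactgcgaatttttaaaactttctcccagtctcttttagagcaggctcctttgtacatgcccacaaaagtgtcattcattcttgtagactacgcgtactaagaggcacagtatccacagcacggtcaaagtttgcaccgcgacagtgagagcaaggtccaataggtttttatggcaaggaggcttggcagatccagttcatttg
Promoters of 8 members could be read, Mmp15 included, and Mmp2 and Mmp9 had no entry. The AP-1 letters were in 2 of the 8, Mmp13 (first base 35 bases before the start) and Mmp3 (46 bases before), and in 7.81% of 32851 mouse promoters of the same length. The same 2 promoters held TATAAA, at 16 bases before the start in Mmp13 and 7 bases before in Mmp3, against 8.32% of all promoters. The CAGAC letters were in 1 of the 8, Mep1a (162 bases before the start), and in 49.6% of all promoters. AGGAAG, the core of an Ets site (both strands, no overlap with the other matches and left in lower case), was in 5 of the 8, Mmp3, Mmp13, Mmp14, Timp1 and Timp3, and in 35.4% of all promoters. The longer Smad palindrome GTCTAGAC was in 0 of the 8 and in 0.213% of all promoters. A match describes letters and is not a binding site.

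**Figure D1:**
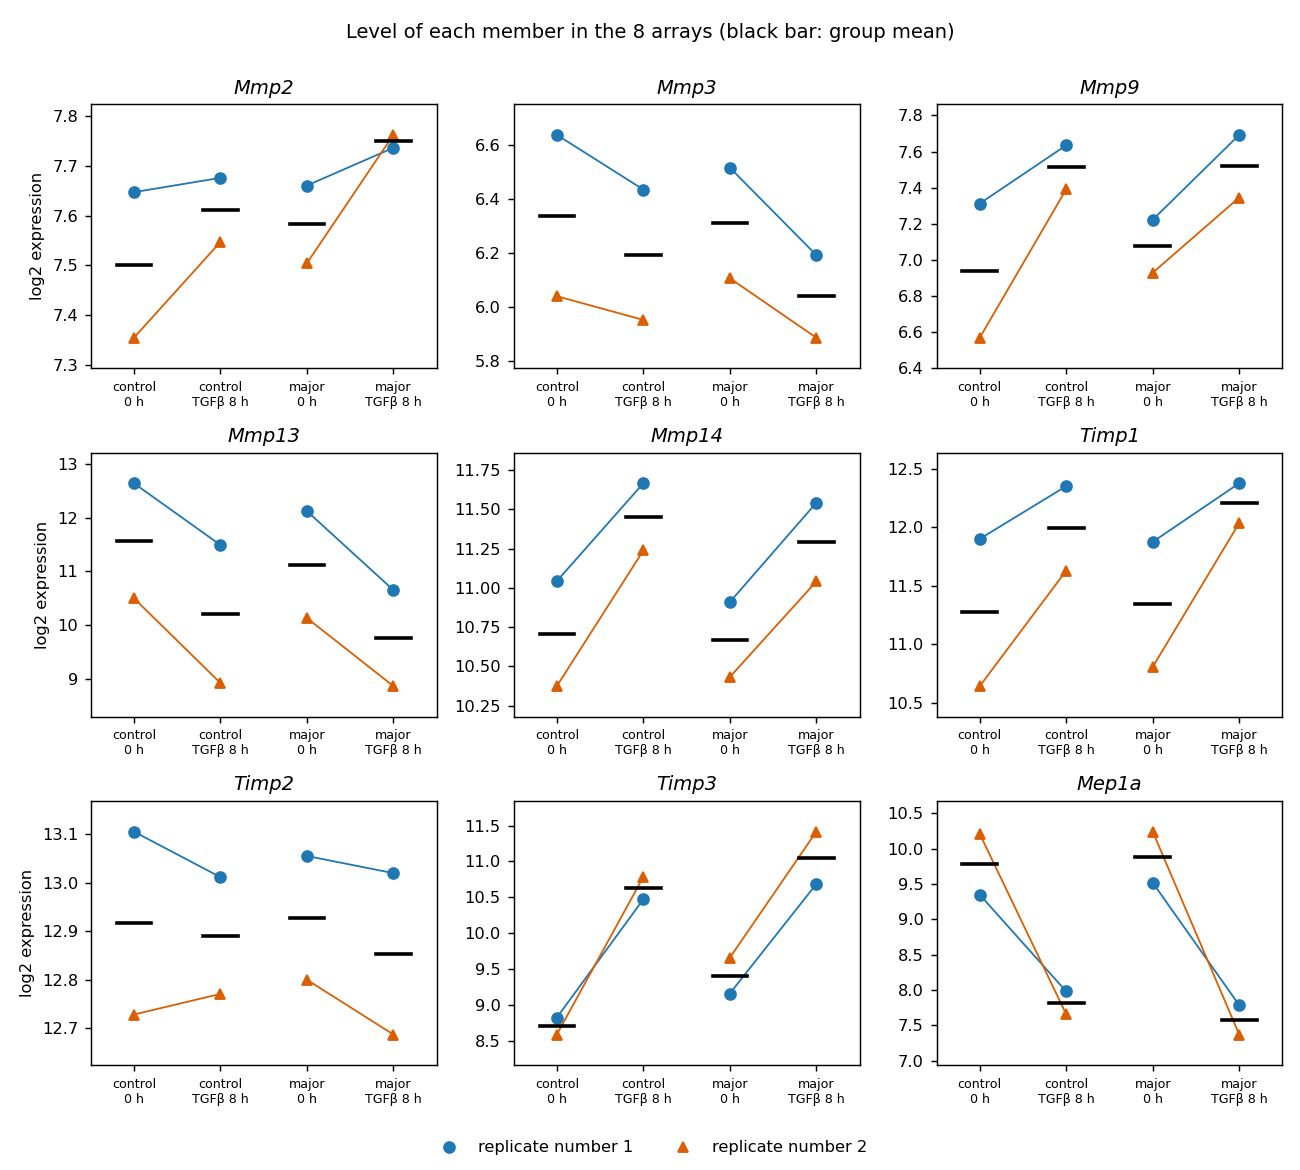
Log2 RMA value (vertical axis) of each measured member in every array, by group, with 1 marker per array (circle for replicate 1, triangle for replicate 2), a line joining untreated and TGFbeta arrays of one number, and a black bar at the group mean; each panel has its own scale. Timp3 was higher and Mep1a lower in all 4 TGFbeta arrays than in all 4 untreated arrays, and replicate 2 of Mmp13 lay below replicate 1 in every group.

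Of the 7 members whose TGFbeta difference could be tested, Mmp14, Mmp9 and Timp1 rose and Mmp13 fell in both cell populations in the limma model that includes the replicate number (the blocked model), while Mmp2, Mmp3 and Timp2 did not pass. The untested pair was chosen for its difference with TGFbeta and is only described. Timp3 was 3.80-fold higher with TGFbeta in control vector cells and 3.12-fold higher in major satellite cells, and Mep1a was 3.89-fold and 4.92-fold lower. A gene passed at an adjusted p (Benjamini-Hochberg over 19937 genes) under 0.05. In control vector cells 4 of 7 members passed the blocked model, where 14.6% of all genes passed. In major satellite cells it was also 4 of 7, against 15.3% of all genes. All members were chosen with earlier results of these data known, so nothing is read from a count above these shares. Without the replicate number in the model 0 of 7 members passed in either population, where 1.07% and 1.09% of all genes did. In that limma model 1 of 7 members, Mmp14, had an unadjusted p under 0.05 in control vector cells and 0 of 7 in major satellite cells, where 9.34% and 9.72% of all genes did. With the block 4 and 5 of 7 did, against 25.4% and 28.6% of all genes. Arrays with the same number deviated together from their group means, and the widest such shift among the members was that of Mmp13. The 2 arrays of each TGFbeta group lay wholly beyond the 2 untreated arrays for 4 of 9 members in control vector cells, where 29.3% of all genes did so. In major satellite cells that held for 6 of 9, against 34.0% of all genes. Mep1a and Timp3 are among both counts, and nothing is read from them.

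Mmp13 is a collagenase that cleaves fibrillar collagen. Its log2 values were 12.64 and 10.50 (replicates 1 and 2) in untreated control vector cells, and 11.49 and 8.92 with TGFbeta. With the satellite vector they were 12.12 and 10.13 untreated, and 10.65 and 8.86 with TGFbeta. Within each replicate number the TGFbeta array was lower, but the groups overlapped, because replicate 2 lay below replicate 1 by more than TGFbeta lowered either. In the blocked model Mmp13 fell by 1.36 in control vector cells (SE 0.16, limma adjusted p = 0.0005), with differences of -1.15 in replicate 1 and -1.58 in replicate 2. With the satellite vector it fell by 1.37 (SE 0.16, adjusted p = 0.0005), a 2.58-fold lower level. Without the block the standard error was 1.19 in both populations, and the adjusted p was 1 in control vector cells and 0.923 in major satellite cells. With the block, the call held in 8 of 8 models that each left out 1 array, in both populations.

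The shift between replicate numbers was wide for several members. Replicate 2 minus replicate 1 averaged -2.12 for Mmp13 over the 4 groups, and ranged from -2.57 to -1.79. The average was -0.85 for Timp1, -0.52 for Mmp14, -0.45 for Mmp3, -0.41 for Mmp9 and -0.30 for Timp2, all 6 lower in replicate 2 in 4 of 4 groups. How many of all genes were lower in replicate 2 in every group was not counted, so nothing is read from that number. Over all genes the median of this shift lay between -0.09 and -0.06 in the 4 groups. The median over all probesets went the other way, at 7.72 to 7.76 in the arrays of replicate 1 and 7.88 to 7.92 in those of replicate 2. What differed between the replicate numbers was not tested.

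Mmp14 encodes the membrane-type protease MT1-MMP, which cleaves collagen at the cell surface and activates pro-Mmp2 together with Timp2. Its log2 values were 11.04 and 10.38 in untreated control vector cells, and 11.67 and 11.24 with TGFbeta. Major satellite cells gave 10.91 and 10.43 untreated, and 11.54 and 11.04 with TGFbeta. The TGFbeta arrays lay above the untreated arrays with no overlap in both populations. In the blocked model Mmp14 rose by 0.74 in control vector cells (SE 0.09, limma adjusted p = 0.0007) and by 0.62 in major satellite cells (SE 0.09, adjusted p = 0.0020). This is a 1.67-fold and a 1.54-fold higher level. The call held in 8 of 8 models that left out 1 array, in both populations.

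Mmp9, a gelatinase that degrades denatured collagen and type IV collagen of basement membranes, had log2 values of 7.31 and 6.57 in untreated control vector cells, and 7.63 and 7.39 with TGFbeta. Major satellite cells had 7.22 and 6.93 untreated, and 7.69 and 7.35 with TGFbeta. The groups did not overlap in either population, though in control vector cells the lower TGFbeta array and the higher untreated array were close. In the blocked model Mmp9 rose by 0.57 in control vector cells (SE 0.12, limma adjusted p = 0.0131) and by 0.44 in major satellite cells (SE 0.12, adjusted p = 0.0402). These calls did not hold in every model that left out 1 array. In control vector cells the adjusted p was 0.130 without replicate 2 of the untreated group, where the difference was 0.35, and 0.157 without replicate 2 of the TGFbeta group. In major satellite cells the call was lost without any 1 of the 4 arrays of that population, with adjusted p of 0.0940 to 0.247.

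The remaining secreted members did not pass in either model. Mmp2, the other gelatinase, had log2 values of 7.65 and 7.35 untreated and 7.68 and 7.55 with TGFbeta in control vector cells. Cells with the satellite vector had 7.66 and 7.50 untreated and 7.74 and 7.76 with TGFbeta, and these groups did not overlap. The blocked 95% interval of its TGFbeta difference was -0.11 to 0.33 in control vector cells and -0.05 to 0.38 in major satellite cells. Mmp3, or stromelysin, which cleaves proteoglycans and other proteases, had log2 values of 6.64 and 6.04 untreated and 6.43 and 5.95 with TGFbeta in control vector cells. Cells with the satellite vector had 6.52 and 6.11 untreated and 6.19 and 5.89 with TGFbeta. The difference of Mmp3 was negative in both replicates of both populations, and the groups overlapped. Its blocked interval was -0.36 to 0.07 in control vector cells, and -0.49 to -0.06 in major satellite cells, where the adjusted p was 0.0895.

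Mmp13 and Mmp3 belong to a row of 10 metalloproteinase genes on chromosome 9, in the order Mmp13, Mmp12, Mmp1b, Mmp3, Mmp1a, Mmp10, Mmp8, Mmp27, Mmp20 and Mmp7. All 10 were measured, and 6 of them lay in the lowest 25% of genes. In the blocked model 1 of 10, Mmp13, passed with TGFbeta in each population. The other 9 ranged from -0.22 to 0.32 in control vector cells and from -0.27 to 0.07 in major satellite cells. The promoters of Mmp13 and Mmp3 printed above both hold the AP-1 letters, and the part of these letters in either difference was not tested. Whether the fall of Mmp13 differed from the change of its neighbours was not tested.

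Timp1, a secreted inhibitor of most of these proteases, had log2 values of 11.90 and 10.64 in untreated control vector cells and 12.35 and 11.63 with TGFbeta. Major satellite cells gave 11.87 and 10.81 untreated, and 12.38 and 12.04 with TGFbeta. The groups overlapped in control vector cells and did not overlap in major satellite cells. In the blocked model Timp1 rose by 0.72 in control vector cells (SE 0.18, limma adjusted p = 0.0293) and by 0.87 in major satellite cells (SE 0.18, adjusted p = 0.0126). In control vector cells the adjusted p was 0.303 without replicate 2 of the untreated group, where the difference was 0.45. It was 0.0867 without replicate 1 and 0.223 without replicate 2 of the TGFbeta group. With the satellite vector it was 0.126 without replicate 2 of the untreated group and 0.108 without replicate 2 of the TGFbeta group, where the difference was 0.53.

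Timp2, the inhibitor that also serves as the adaptor for activation of pro-Mmp2 by Mmp14, had log2 values of 13.11 and 12.73 untreated and 13.01 and 12.77 with TGFbeta in control vector cells. With the satellite vector they were 13.05 and 12.80 untreated, and 13.02 and 12.69 with TGFbeta. The groups overlapped in both populations, and replicate 2 was the lower array in each group. The blocked interval of the TGFbeta difference of Timp2 was -0.22 to 0.16 in control vector cells and -0.26 to 0.12 in major satellite cells.

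Timp3 is the inhibitor that stays bound to the extracellular matrix and also blocks sheddases of the ADAM family. Its log2 values were 8.82 and 8.59 in untreated control vector cells and 10.47 and 10.78 with TGFbeta. Major satellite cells gave 9.16 and 9.66 untreated, and 10.68 and 11.42 with TGFbeta. All 4 TGFbeta arrays lay above all 4 untreated arrays, and the highest untreated arrays were those with the satellite vector. The TGFbeta difference was 1.65 and 2.20 in the replicates of control vector cells, a mean of 1.92. The satellite vector cells had 1.53 and 1.76, a mean of 1.64. Timp3 was chosen by this difference, so no test is given.

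Mep1a encodes the alpha subunit of meprin, a zinc protease of the astacin family that is best known from the brush border of kidney and intestine and that cleaves matrix proteins and procollagen. Its log2 values were 9.35 and 10.21 in untreated control vector cells and 7.98 and 7.66 with TGFbeta. Major satellite cells gave 9.52 and 10.24 untreated, and 7.79 and 7.37 with TGFbeta. All 4 TGFbeta arrays lay below all 4 untreated arrays. The replicates differed in the size of the drop: the difference was -1.37 and -2.55 in control vector cells (mean -1.96), and -1.73 and -2.87 in major satellite cells (mean -2.30). Replicate 2 began higher and ended lower than replicate 1 in both populations. Mep1a was also selected from this difference, and no test is given.

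**Figure D2:**
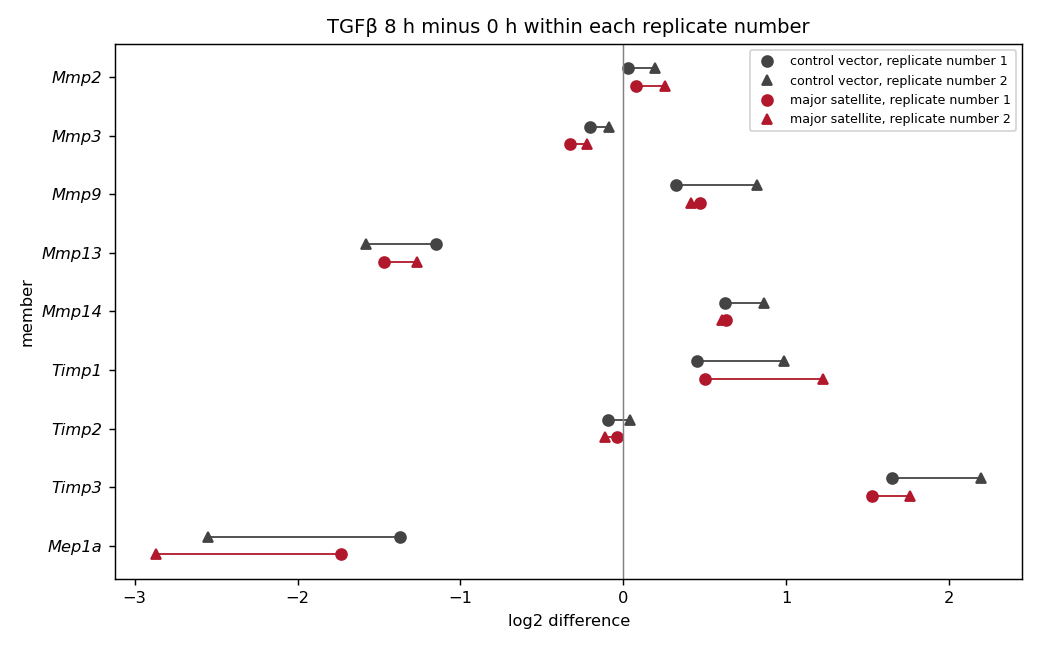
Log2 difference between TGFbeta and untreated arrays (horizontal axis) for each member in each replicate number, for control vector (grey) and major satellite cells (red), with a line joining the replicates. Both replicates of both populations lay above 0 for Timp3, Timp1, Mmp14, Mmp9 and Mmp2. They lay below 0 for Mep1a, Mmp13 and Mmp3, while the values of Timp2 ran from -0.11 to 0.04. Mmp2 and Mmp3 did not pass, and the share of all genes with the same sign throughout was not counted.

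Genes whose values ran most like those of the pair were looked up by Pearson correlation over the 8 arrays, after the mean of each replicate number was subtracted, among 13980 genes above the lowest 25%. For Mep1a they were Lin54 (r = 0.999), Cyp3a13 (r = 0.998) and Rnf141 (r = 0.998). Their drops with TGFbeta differed in size: the log2 difference was -0.44 for Lin54, -2.08 for Cyp3a13, a cytochrome P450, and -0.44 for Rnf141 in control vector cells. For Timp3 they were Ino80b (r = 0.995), Pstpip1 (r = 0.995) and Nebl (r = 0.994), with differences of 0.28, 0.41 and 0.82 in control vector cells. The correlations are the highest of many, the 8 arrays hold only 4 conditions, and no p is given.

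The satellite vector was compared with the control vector to ask whether it went with other levels of these genes. In untreated cells 0 of 9 members passed in limma, without the block (0.00502% of all genes passed) or with it (0.0301%). With TGFbeta 0 of 9 passed as well, where 0.00502% and 0.0301% of all genes did. An unadjusted p under 0.05 was reached by 1 of 9 members in untreated cells without the block and 2 of 9 with it, where 0.431% and 3.28% of all genes reached it. With TGFbeta it was 0 of 9 and 2 of 9, against 0.426% and 6.51% of all genes. Both arrays of one vector lay beyond both of the other for 1 of 9 members in untreated cells, Timp3, where 13.2% of all genes did so. With TGFbeta this held for 1 of 9, Mmp2, where 16.9% of all genes did so.

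Timp3 had the widest value among these comparisons. In untreated cells it was 0.70 higher with the satellite vector, 0.33 in replicate 1 and 1.07 in replicate 2, with a blocked 95% interval of 0.28 to 1.12 and an adjusted p of 0.9999 in the blocked limma model. With TGFbeta it was 0.42 higher, 0.21 in replicate 1 and 0.63 in replicate 2, with a blocked interval of 0.00 to 0.84 and an adjusted p of 0.752. The direction was the same in both replicates of both treatments, and neither difference passed.

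Mmp13 had a negative difference with the satellite vector in all 4 pairs of arrays. In untreated cells it was -0.52 in replicate 1 and -0.37 in replicate 2, with a mean of -0.44 and a blocked interval of -0.80 to -0.09. With TGFbeta it was -0.84 and -0.06, with a mean of -0.45 and a blocked interval of -0.80 to -0.09. The adjusted p was 0.9999 and 0.752 in the blocked limma model. Mep1a had a difference of 0.10 in untreated cells (0.17 and 0.03, blocked interval -0.54 to 0.75) and -0.24 with TGFbeta (-0.19 and -0.28, blocked interval -0.88 to 0.41). The other 6 members had differences of -0.04 to 0.14 in untreated cells and -0.16 to 0.22 with TGFbeta. Their adjusted p was at least 0.761 in the blocked model, which does not show that the vectors left them alike. Among them Mmp2 was higher with the satellite vector in all 4 pairs. The share of all genes with the same sign in all 4 pairs was not counted. Nothing is therefore read from the shared signs of Timp3, Mmp13 and Mmp2.

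**Figure D3:**
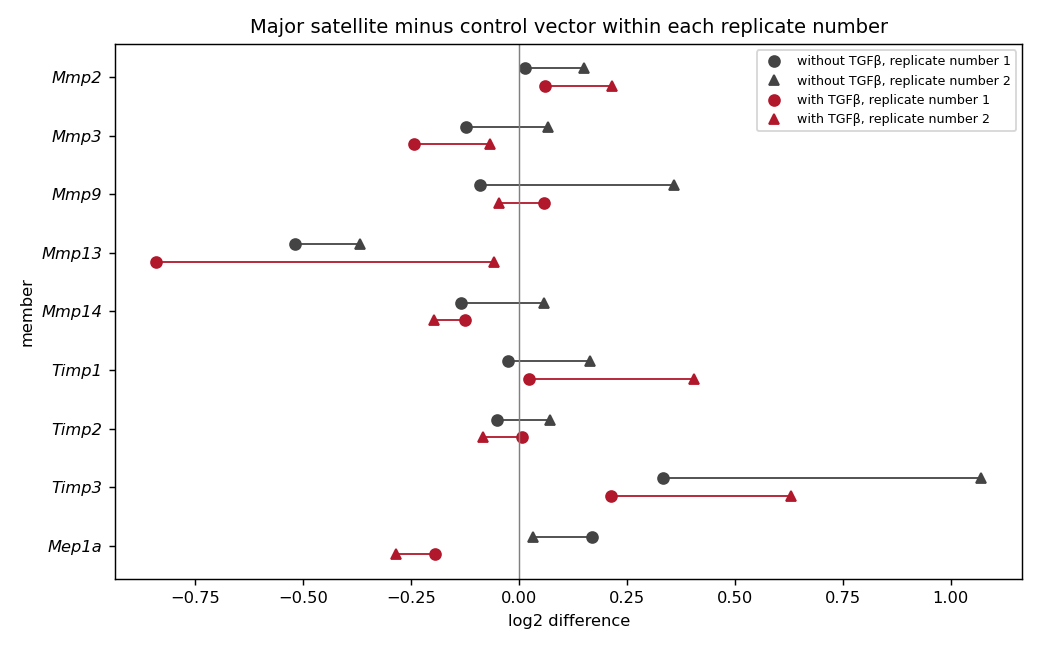
Log2 difference between major satellite and control vector arrays (horizontal axis) for each member in each replicate number, for untreated cells (grey) and cells with TGFbeta (red), with a line joining the replicates. The values of Timp3 and Mmp2 lay above 0 and those of Mmp13 below 0 in all 4 pairs, and no member passed the test. The share of all genes with the same sign in all 4 pairs was not counted.

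The difference between the TGFbeta responses of the populations was tested for the 7 members whose response could be tested. In limma 0 of 7 passed without the block or with it, as did 0% of all genes, and 0 of 7 had an unadjusted p under 0.05 in either model, where 0.221% of all genes did without the block and 3.30% with it. For Mmp13 the mean difference was 0.00, from opposite values of -0.32 in replicate 1 and 0.31 in replicate 2 (major satellite minus control vector). Its 95% interval was -0.51 to 0.50 in the blocked model and -4.04 to 4.03 without the block. For Mep1a the response of major satellite cells minus that of control vector cells was -0.36 in replicate 1 and -0.32 in replicate 2, and for Timp3 it was -0.12 and -0.44. Both are descriptions with no test, and they share the arrays that chose these genes.

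The wider protease network was described by 7 lists with 70 genes, of which 67 were measured. In the blocked model 8 of the 67 rose and 5 fell in control vector cells, and 10 rose and 5 fell in major satellite cells. Of all genes 14.6% and 15.3% passed that model, and the counts by list below are to be read beside these shares. The lists were chosen with earlier results of these data known, so nothing is read from a count above the shares. Without the block 1 of the 67 passed in control vector cells and 0 in major satellite cells, where 1.07% and 1.09% of all genes did. At an unadjusted p under 0.05 without the block it was 7 and 11 of the 67, against 9.34% and 9.72% of all genes. In both comparisons between vectors and in the difference between responses 0 of the 67 passed in either limma model. At an unadjusted p under 0.05 in the blocked model these 3 comparisons held 1, 5 and 3 of the 67, where 3.28%, 6.51% and 3.30% of all genes passed that mark, and without the block 0 each. Values below are from the blocked model.

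Of 13 other secreted metalloproteinases 0 passed in control vector cells and 1 fell in major satellite cells, Mmp19, by 0.37 (adjusted p = 0.0253), where in control vector cells its difference was -0.07. Of 4 other membrane-type metalloproteinases 0 passed in either population, and of 7 other inhibitors, which include Reck and Timp4, 0 passed. The median difference was 0.06 and 0.01 for the secreted list in control vector and major satellite cells, 0.04 and 0.15 for the membrane-type list, and -0.01 and 0.00 for the inhibitors. The median over all genes was 0.01 and 0.03. At an unadjusted p under 0.05 in the blocked model the secreted list held 2 and 1, the membrane-type list 1 and 0, and the inhibitors 0 and 1, where 25.4% and 28.6% of all genes lay under it.

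Among 5 other astacins, the family of meprin, 1 rose in each population. It was Bmp1, the procollagen C-proteinase that trims fibrillar collagen precursors, which rose by 1.01 in control vector cells (SE 0.11, adjusted p = 0.0004) and by 0.95 in major satellite cells (adjusted p = 0.0006). Mep1a was selected from its difference with TGFbeta in these arrays, so nothing is read from the opposite directions of Bmp1 and Mep1a. The median of the 5 was 0.03 and 0.04.

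Of 11 measured genes of precursor activation and the plasminogen system, 1 rose and 2 fell in control vector cells, and 2 rose and 1 fell in major satellite cells. Furin, the convertase that activates Mmp14, rose by 0.79 (SE 0.09, adjusted p = 0.0005) and by 0.74 (adjusted p = 0.0007). Pcsk6, another proprotein convertase, fell by 1.02 (SE 0.13, adjusted p = 0.0008) and by 0.93 (adjusted p = 0.0013). Htra1, a secreted serine protease, fell by 0.48 in control vector cells (adjusted p = 0.0326), where in major satellite cells its difference was -0.18. Plau, the urokinase that makes plasmin, rose by 0.38 in major satellite cells (adjusted p = 0.0218), where in control vector cells its difference was 0.29. Neither gene passed in the test of the difference between the responses. The median of the list was -0.03 and 0.01.

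The ADAM proteases, which shed growth factors and receptors from the cell surface, had 4 rising and 1 falling of 9 in control vector cells and 3 rising and 0 falling in major satellite cells, with medians of 0.20 and 0.22. Adam8 rose by 1.28 (SE 0.23, adjusted p = 0.0054) and by 1.46 (adjusted p = 0.0028). Adam12 rose by 1.08 (SE 0.10, adjusted p = 0.0002) and by 0.97 (adjusted p = 0.0004). Adam17, the TNF-converting enzyme that Timp3 blocks, fell by 0.38 in control vector cells (adjusted p = 0.0146) and had a difference of -0.26 in major satellite cells. Adam15 rose by 0.45 in control vector cells (adjusted p = 0.0129) and had a difference of 0.30 in major satellite cells. Adam28 rose by 0.39 in major satellite cells (adjusted p = 0.0187) and had a difference of -0.06 in control vector cells. The differences between populations did not pass for any of these genes.

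The ADAMTS proteases, secreted relatives that process procollagen and cleave proteoglycans, had 2 rising and 2 falling of 18 in control vector cells and 4 rising and 3 falling in major satellite cells, with medians of 0.16 and 0.12. Adamts6 rose by 1.46 (SE 0.15, adjusted p = 0.0003) and by 1.43 (adjusted p = 0.0004). Adamts7 rose by 0.95 (SE 0.10, adjusted p = 0.0004) and by 0.87 (adjusted p = 0.0006), and in control vector cells it was the gene of the 67 that also passed without the block (adjusted p = 0.0473). Adamts15 fell by 0.55 and by 0.48 (adjusted p = 0.0031 and 0.0064). Adamts9 fell by 0.40 and by 0.45 (adjusted p = 0.0277 and 0.0165). Adamts4, an aggrecanase, rose by 0.54 in major satellite cells (adjusted p = 0.0079) and had a difference of 0.28 in control vector cells.

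**Figure D4:**
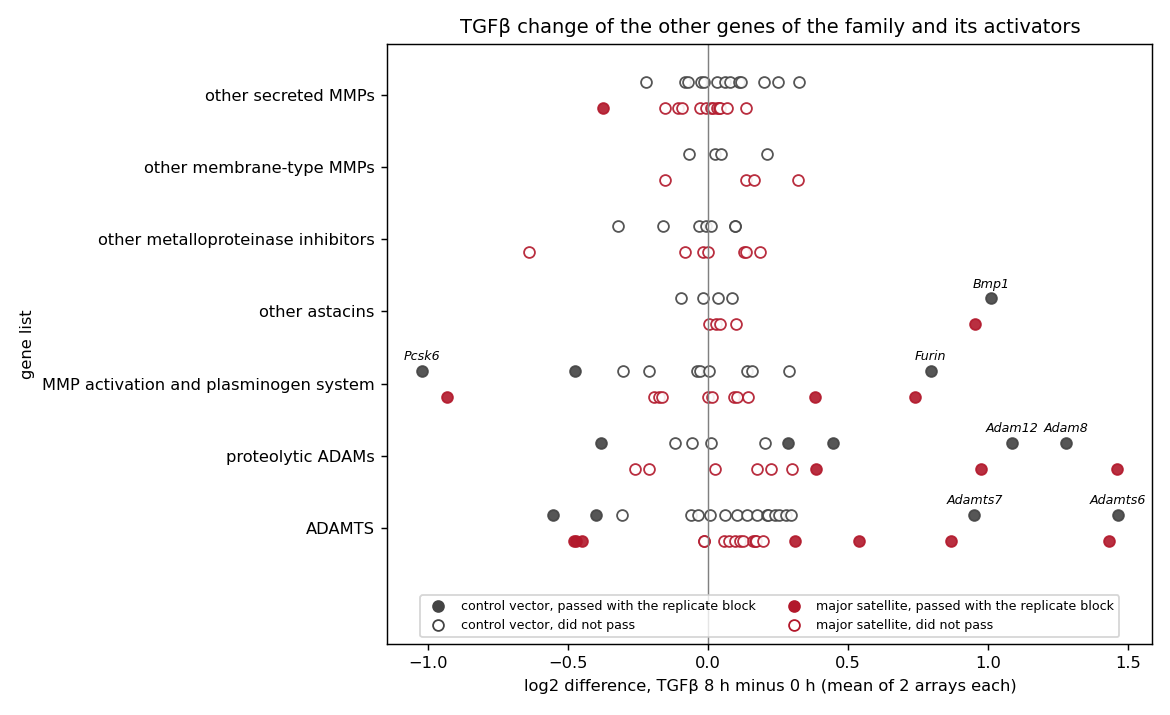
Log2 difference between TGFbeta and untreated arrays (horizontal axis, group means) for the measured genes of the 7 lists, 1 list per line, in control vector (grey) and major satellite cells (red), with filled points for genes that passed the blocked model. Adamts6, Adam8, Adam12, Bmp1, Adamts7 and Furin lay far to the right and Pcsk6 far to the left in both populations. The 7 other inhibitors held no filled point.

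Markers of other cell types were read beside these values. Of 8 fibroblast markers 1 (Col1a1) lay above the median of all genes in every array, as did 0 of 4 endothelial markers and 1 (Cd68) of 5 measured immune markers. With TGFbeta in the blocked model 2 of 8 fibroblast markers, Pdgfra (0.63) and Col1a1 (0.39), rose in control vector cells, and 3 of 8 rose in major satellite cells, Pdgfra (0.70), Col1a1 (0.55) and Pdgfrb (0.33). Their summed log2 level was 56.2 to 58.6 in untreated and 58.4 to 59.8 in TGFbeta arrays of control vector cells, and 56.7 to 58.0 and 59.0 to 59.6 in major satellite cells. Of 10 epithelial markers 1 rose (Cldn4) and 1 fell (Krt19) in each population, and their summed level was 95.4 to 97.3 and 98.2 to 99.1 in control vector cells, and 96.2 to 96.4 and 98.2 to 99.5 in major satellite cells. In control vector cells Cldn4 alone differed by 2.26, so the sum there does not describe the 10 markers as a set. The median difference of the 10 was 0.08 in control vector cells and 0.14 in major satellite cells. Of 4 endothelial markers 1 rose in control vector cells and 0 in major satellite cells, with sums of 26.1 to 27.4 and 26.7 to 27.7, and 26.3 to 27.5 and 26.7 to 28.1. Of 5 immune markers 0 passed in limma (0 and 1 at an unadjusted p under 0.05 with the block), with sums of 34.6 to 35.6 and 34.6 to 35.7, and 34.7 to 35.4 and 34.9 to 35.9. In the blocked model 14.6% of all genes passed in control vector cells and 15.3% in major satellite cells. The part of these markers in the changes of the proteases and inhibitors was not tested.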

How the data were processed

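Affymetrix arrays of total RNA gave 8 columns in 4 groups of 2. The authors deposited log2 expression values per probeset. Per the submitters' processing notes the tools were RMA and limma; versions, roles and the annotation's build are not given in the sources used here. Of 34760 probesets 21640 had 1 symbol, 1321 several and 11799 none. Only the first kind was used, and a gene with several was read from that with the highest mean, which left 19937 genes. Columns of per-sample values left unused numbered 0.

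The models were made in limma 3.58.1 (R 4.3.3; lmFit and eBayes) over all 8 arrays with 1 mean per group (4 residual degrees of freedom), and with the replicate number from the titles as a block (3). Tests were two-sided, with Benjamini-Hochberg adjustment over 19937 genes, a threshold of 0.05 and 95% intervals. Deviations of same-numbered arrays from their group means correlated at 0.758 to 0.874, so the numbers pair the arrays. The code was tested on simulated data.

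The members and lists were chosen with earlier results of these data known. All members are named. Of a list, at most 4 genes per comparison that passed the blocked model with TGFbeta are named, by smallest p. Alternatives were the block, centring of arrays, a filter on the lowest 25% of genes, the mean of a gene's probesets, an intensity trend, only the 4 arrays of a comparison, and leaving out each array. Centring, the filter and the trend with the block were added after the data had been seen. Promoters were read from RefSeq (GRCm38.p6).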

Additional observations from a re-analysis of the deposited data

Results flagged for a closer look

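For Mep1a the satellite vector went with opposite signs without and with TGFbeta. Both untreated pairs were higher with the satellite vector (0.17 and 0.03) and both TGFbeta pairs lower (-0.19 and -0.28), so the differences moved apart by -0.34. The difference was not tested, because Mep1a was selected from its TGFbeta values in the same arrays. Of the vector differences of Mep1a themselves neither passed, and the untreated one of replicate 2 is close to 0.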

How the results depend on the processing

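The replicate block, which pairs arrays by the number in their titles, decided the calls. With it 4 members passed in each TGFbeta comparison in place of 0, also with arrays centred on their medians, with the lowest 25% of genes left out and with an intensity trend, 3 settings that were added after the data had been seen (4 in each). Leaving out 1 array gave 0 to 4 members, 0 throughout without the block and 2 to 4 with it. All genes passing numbered 214 and 218 in control vector and major satellite cells without the block and 2901 and 3044 with it. Without 1 array these were 0 to 89 and 0 to 82 without the block, and 1202 to 3161 and 1228 to 3020 with it. Only the 4 arrays of the comparison gave 0 in both, and an intensity trend gave 140 in major satellite cells. For the vectors 1 gene passed without the block in each comparison and 6 with it. In the vector comparisons and the difference between responses 0 members passed in every setting run. Of 18 TGFbeta differences of members 14 kept their sign in every setting and 4 (Mmp2, Mmp3 and Timp2 in control vector cells and Timp2 in major satellite cells) changed it when 1 array was left out. Of 18 vector differences 3 kept it, as did 0 of 9 differences between responses. None of those that changed passed. Centring moved the median of all genes by at most 0.02. With 2 arrays per group the precision of members near background, such as Mmp3, is limited.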

Other observations

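Adamts9, a protease that cleaves aggrecan and versican, was covered by 6 probesets, and the one with the highest mean, used above, showed a smaller difference with TGFbeta than the average of the 6. The difference ran from -1.25 to -0.33 over the 6 in control vector cells (mean -0.78, against -0.40 for the one used) and from -1.11 to -0.17 in major satellite cells (mean -0.73, against -0.45). Adamts3, a procollagen N-proteinase with 16 probesets, had a mean of 0.04 and 0.11, and the one used showed 0.25 and -0.02.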
